A study of Mus musculus with 6 samples.

Results

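Ligands of the tumour necrosis factor (TNF) superfamily that helper T cells make were followed as 9 genes, Tnf, Lta, Ltb, Cd40lg, Fasl, Tnfsf8, Tnfsf10, Tnfsf11 and Tnfsf14. The members were chosen by name, as the rows of the deposited gene table that carry these 9 symbols. All 9 were found among the 54532 genes of the table, each in 1 row, and all 9 were among the 16075 genes that passed the filter on low counts. RNA came from CD4+ T cells of the spleen, taken from C57BL/6 mice in the acute phase of experimental autoimmune encephalomyelitis (EAE), an induced inflammatory disease of the brain and spinal cord. The Ogt-KD group held 3 libraries from mice labelled Ogtfl/wt CD4-Cre, which carry 1 loxP-flanked and 1 wild-type allele of the X-linked gene for O-GlcNAc transferase and a Cre recombinase under Cd4 regulatory sequence, a driver active in T cells. The control group held 3 libraries from mice labelled wild type, for which no Cre and no floxed allele is named, so effects of Cre and of the allele cannot be told apart. Both groups had EAE, and no mouse without EAE was studied. The labels name no age or sex. As labelled, a floxed and a wild-type allele of an X-linked gene would make the Ogt-KD mice female, and the sex of the control mice is not given.

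TNF superfamily ligands are mostly trimers held in the membrane of the cell that makes them, and some are cut off by proteases and act at a distance. Their receptors either recruit TRAF adaptors, which switch on NF-kB and survival or costimulation programmes, or carry a death domain that can start apoptosis. In helper T cells the ligands help activate B cells and dendritic cells, organise lymphoid tissue and drive inflammation, and TNF and the lymphotoxins have long been studied in EAE.

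Each library held between 18127031 and 25683453 counted reads. Ogt itself had 661.9, 598.8 and 458.6 CPM (read counts scaled to library size) in the Ogt-KD libraries, against 599.2, 627.9 and 562.4 CPM in the control libraries, so the gene-level RNA did not separate the groups. These counts cover the whole gene and do not measure a deletion of floxed exons. Both libraries numbered 3 stood apart on principal component 1 (44.75% of the variance), at 38.43 in Ogt-KD and 40.68 in control, where the other 4 libraries lay between -42.43 and 6.923. The T cell identity list, which holds Cd4, Lck and the Cd3 chains, summed to 4516 to 4893 CPM in Ogt-KD and 4785 to 5358 CPM in control libraries, with none of its 10 genes at 0.

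Tnf, Lta and Ltb are neighbours in the class III region of the major histocompatibility complex. On the mouse build GRCm38, Ltb lies at chr17:35194439-35196320 on the plus strand, and Tnf at chr17:35199381-35202007 and Lta at chr17:35203165-35205351 on the minus strand. The 3 genes span 10913 bases, with 3060 bases between Ltb and Tnf and 1157 bases between Tnf and Lta. Tnfsf14, at chr17:57189492-57194177 on the minus strand, shares the chromosome but lies 22 megabases away. The others lie at chrX:57212143-57224042 (Cd40lg, plus strand), chr1:161780689-161788495 (Fasl, minus), chr4:63831308-63861347 (Tnfsf8, minus), chr3:27317028-27342427 (Tnfsf10, plus) and chr14:78277445-78308043 (Tnfsf11, minus). All 9 are multi-exon protein-coding genes whose positions are identical in GENCODE release M21. Only Lta and Ltb overlap another annotated gene, each a microRNA gene on its own strand (Mir6974 within Lta and Mir6973a within Ltb), and no source used here says how the counting shared such reads.

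The promoters of the 3 clustered genes are shown because Tnf had a larger log2 fold change than Lta and Ltb in the comparison that follows. None of the 3 was called there, and the difference between the genes was not tested. Windows of 250 bases before the RefSeq start (GRCm38.p6) were searched, and each line gives the window 5′ to 3′ on the gene's own strand, up to the start in the deposited table (Tnf chr17:35202008-35202257, Lta chr17:35205352-35205601, Ltb chr17:35194257-35194438). The RefSeq start of Ltb lies 68 bases inside the gene as deposited, so 182 bases of its window are printed. Capitals mark GGAAA on either strand (read as TTTCC on the other), the core that NFAT proteins recognise, TATAAA on the sense strand, and the NF-kB consensus on either strand.
Tnf: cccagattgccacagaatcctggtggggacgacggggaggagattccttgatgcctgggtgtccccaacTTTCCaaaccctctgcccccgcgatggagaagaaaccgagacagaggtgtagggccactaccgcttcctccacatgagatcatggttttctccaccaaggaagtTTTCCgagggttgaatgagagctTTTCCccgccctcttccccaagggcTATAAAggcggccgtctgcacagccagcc
Lta: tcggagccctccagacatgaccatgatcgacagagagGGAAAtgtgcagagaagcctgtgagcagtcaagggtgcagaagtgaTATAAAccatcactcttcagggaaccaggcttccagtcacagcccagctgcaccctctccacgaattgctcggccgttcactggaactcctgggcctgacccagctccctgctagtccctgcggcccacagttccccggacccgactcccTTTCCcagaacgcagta
Ltb: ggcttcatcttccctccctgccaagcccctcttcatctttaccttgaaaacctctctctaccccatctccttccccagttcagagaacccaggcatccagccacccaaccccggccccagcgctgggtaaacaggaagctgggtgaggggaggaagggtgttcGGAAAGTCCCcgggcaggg
The Tnf window held 3 copies of GGAAA and a TATAAA at position -29 from the RefSeq start. The Lta window held 2 copies of GGAAA and a TATAAA at position -167. The Ltb window held 1 copy of GGAAA, which overlaps its NF-kB consensus match at position -87 from the RefSeq start, 19 bases before the deposited start, and no TATAAA. Among 32851 RefSeq promoter windows of the same length, 55.6% held GGAAA, 7.6% held TATAAA and 7.3% held the NF-kB consensus, so a GGAAA match is common. Promoter entries were found for 8 of the 9 members, not for Cd40lg, and TGANTCA, the AP-1 site, was found on either strand in 1 of the 8, that of Tnfsf14, against 6.7% of all windows. These matches describe letters and not sites in use.

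Levels were compared between genes with the deposited FPKM, which are per kilobase of gene length. Ltb, whose product anchors lymphotoxin alpha in the membrane and signals to stromal cells through the lymphotoxin beta receptor, was by far the most abundant ligand. It had 406, 425 and 504 FPKM in the Ogt-KD libraries, against 597, 450 and 446 FPKM in the control libraries, and ranked 90th of the 16075 tested genes by mean FPKM. Its mean over the 6 libraries was 9.82 times that of the next ligand, Cd40lg. In CPM, which takes no account of length, it was 4.97 times the next, Tnfsf8. Cd40lg averaged 46.2 ± 5.59 FPKM in Ogt-KD and 49.8 ± 2.93 FPKM in control libraries, and Tnfsf8 36.3 ± 7.73 FPKM in Ogt-KD and 39.4 ± 10.3 FPKM in control libraries (SD, n = 3 each). The ranges of these 2 genes over all libraries overlap, so their order is not set.

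**Figure D1:**
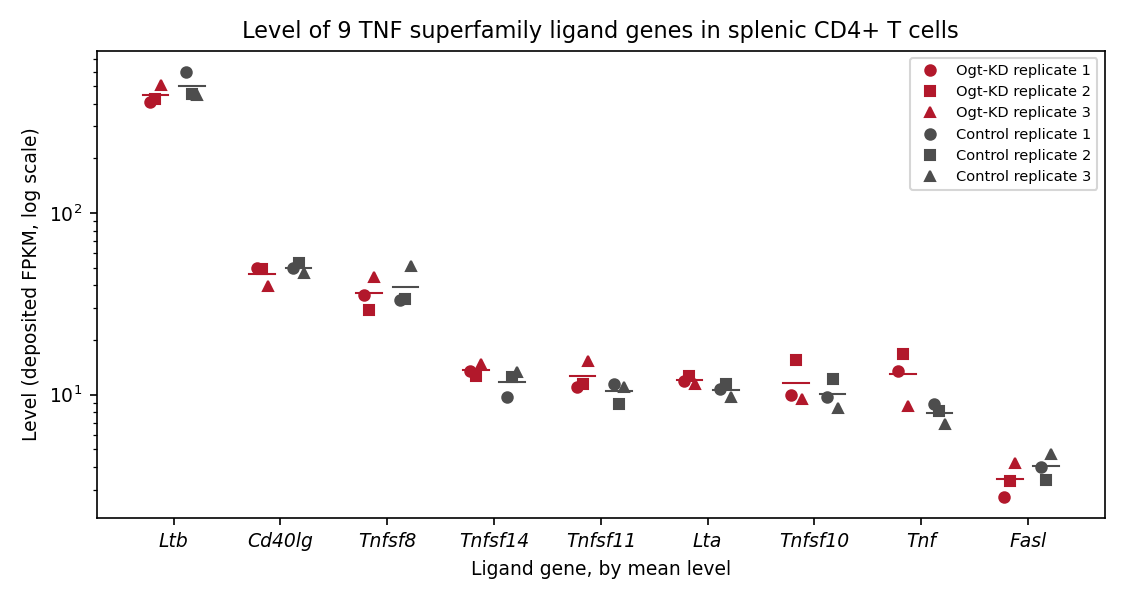
Deposited FPKM (log scale) of the 9 ligand genes, ordered by mean level, with a point per library and a line at each group's mean for Ogt-KD (red) and control (grey). Ltb stands alone near 471 FPKM, Cd40lg and Tnfsf8 form the next level, 5 genes share a level between 6.88 and 16.6 FPKM, and Fasl is lowest.

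Below them, 5 ligands shared a level. Tnfsf14, Tnfsf11, Lta, Tnfsf10 and Tnf had mean values over all libraries of 12.8, 11.5, 11.3, 10.9 and 10.5 FPKM, and their single libraries ran from 6.88 to 16.6 FPKM, so none of these neighbours is set apart by more than its spread. Fasl was lowest, at 2.75 to 4.69 FPKM, below the lowest library of every other member. The Tnf level here is that of cells taken from spleen and frozen, with no restimulation step named in the labels.

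No ligand gene passed the test between Ogt-KD and control cells. With edgeR's quasi-likelihood test and Benjamini-Hochberg adjustment over all 16075 genes, 0 of the 9 had an adjusted p under 0.05, where 0.00622% of all tested genes did, a single gene. DESeq2 and limma-voom also called 0 of the 9, as did the authors' deposited table, in which 0.417% of the genes given an adjusted p were called. The authors' values lie close to those of DESeq2 here, so their table is not counted as a further test. At an unadjusted p under 0.05 there was 1 of 9, Tnf, where 7.52% of tested genes were (5.04% higher and 2.48% lower in Ogt-KD). With the replicate number as a block, 0 of 9 passed where 0.292% of tested genes did, and 1 of 9, again Tnf, had an unadjusted p under 0.05 where 13.2% did. By sign, 5 ligands lay above 0 and 4 below, and the median of their log2 fold changes (Ogt-KD over control) was 0.18, against -0.005 over all tested genes. Groups did not overlap for 1 of 9, Lta, beside 13.3% of tested genes (7.43% higher and 5.88% lower in Ogt-KD). Because the labels name no separate cultures or litters, the p-values measure the spread between these 6 libraries.

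**Figure D2:**
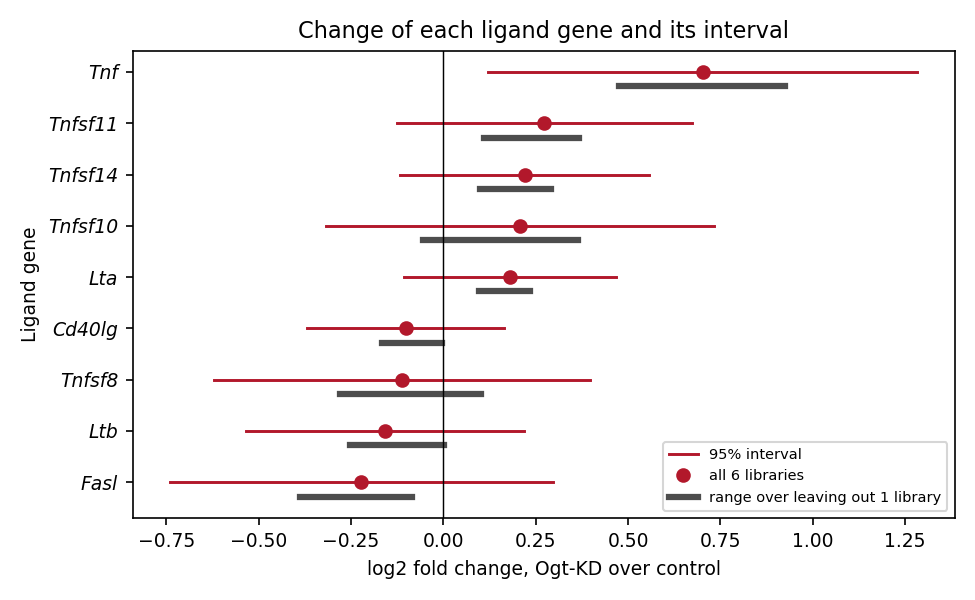
Log2 fold change (Ogt-KD over control) for each ligand gene (red point) with its 95% interval (red line) from edgeR, and the range of estimates when 1 library is left out (grey bar). The interval of Tnf lies from 0.12 to 1.28 and the intervals of the other 8 include 0.

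Tnf, the inflammatory cytokine for which the family is named, was the member with the largest difference. It had 22.4, 27.6 and 14.2 CPM in the Ogt-KD libraries, against 14.8, 13.3 and 11.3 CPM in the control libraries (356 to 544 reads in Ogt-KD and 201 to 330 reads in control libraries). Ogt-KD replicates 1 and 2 lay above every control library, while Ogt-KD replicate 3 lay below control replicate 1, so the groups overlap. In edgeR the log2 fold change was 0.70 (SE 0.25, 95% interval 0.12 to 1.28), a 1.63-fold higher mean level. Its unadjusted edgeR p was 0.0243, the 644th smallest of 16075, and the adjusted p was 0.605. In the authors' deposited table the log2 fold change was 0.697 with an adjusted p of 0.289. Between libraries of the same number, a pairing the labels do not state, the log2 difference (Ogt-KD minus control) was 0.60, 1.05 and 0.33. The fit with the replicate block gave 0.67 with an edgeR adjusted p of 0.146. Of the 9 genes Tnf also varied the most within groups, with a pooled SD of 0.37 on the log2 scale, where counting error at its mean depth accounts for an SD of 0.0752.

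Dendritic cell and antigen presentation markers shared part of the pattern of Tnf across the libraries. Of this list, 10 of 11 genes lay above 0, where 49% of all tested genes did, and none was at 0 reads in all libraries. edgeR called 0 of them without the replicate block and 4 with it, Itgax, H2-Eb1, H2-Ab1 and Zbtb46, at adjusted p values of 0.0363, 0.0363, 0.0407 and 0.0481, beside 0.292% of all tested genes with the block. The list summed to 2038, 2932 and 1268 CPM in the Ogt-KD libraries, against 1334, 1360 and 858.5 CPM in the control libraries. By group mean its largest parts were Cd74 (670.3 CPM in Ogt-KD and 376.9 CPM in control) and H2-Ab1 (418.7 and 203.4 CPM). Both are antigen presentation genes that are not restricted to dendritic cells. Both Tnf and this sum were highest in Ogt-KD replicate 2, next in Ogt-KD replicate 1 and lowest in control replicate 3. Between these, Tnf fell from control replicate 1 (14.75 CPM) to Ogt-KD replicate 3 (14.23 CPM) and control replicate 2 (13.29 CPM). The sum fell instead from control replicate 2 to control replicate 1 and Ogt-KD replicate 3. This pattern was not particular to dendritic markers. Ifng, a cytokine gene of Th1 helper T cells, had 17.78, 19.77 and 9.75 CPM in Ogt-KD libraries, against 6.62, 6.28 and 5.86 CPM in control libraries. Its highest, next and lowest libraries were those of Tnf, but its groups did not overlap. The Th1 list of 8 genes had its highest sum in Ogt-KD replicate 1, at 544 CPM. The part of Th1 cells in the Tnf values was not tested. Zbtb46, a transcription factor of conventional dendritic cells, had 14.06, 22.91 and 4.995 CPM in Ogt-KD libraries, against 5.94, 7.09 and 2.37 CPM in control libraries. Sirpa, the dendritic cell marker below 0, had a log2 fold change of -0.35, and Clec9a had 0.16. The part of dendritic cells, or of other antigen-presenting cells, in the Tnf values was not tested. In bulk RNA, more cells of a type and more RNA per cell cannot be told apart. Monocyte and macrophage markers, another known source of Tnf RNA, lay the other way, with 8 of 10 below 0 and sums of 800 to 3535 CPM in Ogt-KD and 1685 to 3909 CPM in control libraries. Their part was not tested either. B cell markers lay above 0 in 9 of 9. They summed to 722 to 854.2 CPM in Ogt-KD and 517.5 to 1010 CPM in control libraries, and the part of B cells was not tested. Neutrophil markers also lay above 0 in 9 of 9, with 0 at an unadjusted edgeR p under 0.05. Their sum was 138.5, 361.9 and 174.7 CPM in the Ogt-KD libraries, against 136.9, 122.1 and 229.7 CPM in the control libraries. It was highest in Ogt-KD replicate 2, as Tnf was, and the part of neutrophils was not tested.

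Lta encodes lymphotoxin alpha, which is secreted as a homotrimer or joined to lymphotoxin beta at the cell surface. It had 16.7, 17.6 and 15.9 CPM in the Ogt-KD libraries, against 15.0, 15.8 and 13.5 CPM in the control libraries. Every Ogt-KD library lay above every control library, by a narrow margin between Ogt-KD replicate 3 and control replicate 2. On the log2 scale the fold change was 0.18 (SE 0.12, interval -0.11 to 0.47, edgeR adjusted p = 0.829), and without control replicate 3 it was 0.10. Lta had the smallest spread of the family, a within-group SD of 0.0983 on the log2 scale, close to the 0.0781 that counting error alone gives at its depth. The upper end of the interval is a 1.38-fold higher level. Within numbered pairs the log2 difference was 0.15, 0.16 and 0.24.

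Ltb had 622.9, 651.3 and 764.8 CPM in the Ogt-KD libraries, against 917.2, 679.4 and 678.8 CPM in the control libraries. Control replicate 1 was the highest library and the other 5 lay within 623 to 765 CPM. As a log2 fold change this was -0.16 (SE 0.16, interval -0.53 to 0.22, edgeR adjusted p = 0.932), and without control replicate 1 it was 0.0006. With 12050 to 20082 reads per library, counting error is negligible here and the interval reflects the spread between libraries. Control replicate 1 was also the library with the highest T cell identity sum, 5358 CPM, and the lowest B cell sum, 517.5 CPM, where the other 5 libraries had 651.5 to 1010 CPM. Ogt-KD replicate 3, next highest in Ltb, had a T cell sum of 4763 CPM and a B cell sum of 722 CPM. Ogt-KD replicate 1, lowest in Ltb, had 4893 and 854.2 CPM. The part of cell mixture in the Ltb values was not tested.

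The balance between the clustered genes was described as ratios of FPKM within a library, with no test. Lta was 0.0293, 0.0297 and 0.0229 of Ltb in the Ogt-KD libraries, against 0.0180, 0.0255 and 0.0217 in the control libraries, so membrane-anchoring Ltb outweighed Lta throughout and the groups overlap. Tnf was 1.13, 1.32 and 0.753 times Lta in the Ogt-KD libraries, against 0.828, 0.709 and 0.710 in the control libraries. Tnf thus exceeded Lta in Ogt-KD replicates 1 and 2 and lay below it in the other 4 libraries. The difference of mean log2 ratios, Ogt-KD minus control, was 0.33 for Lta to Ltb and 0.48 for Tnf to Lta. It was 0.20 for Lta to Ltb without control replicate 1 and 0.31 for Tnf to Lta without Ogt-KD replicate 2.

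**Figure D3:**
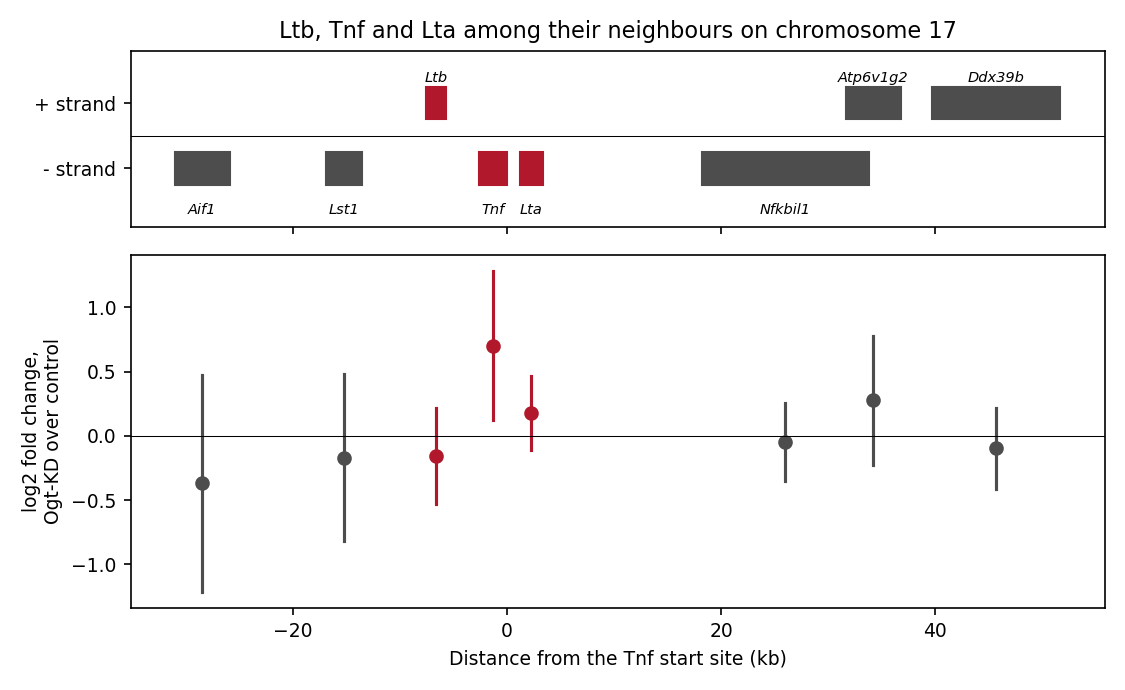
Upper panel, tested genes around the Tnf start site by strand (x axis, distance in kb), microRNA and predicted (Gm) genes left out, with Ltb, Tnf and Lta in red and other genes in grey. Lower panel, log2 fold change (Ogt-KD over control), with a line for its 95% interval, at each gene's midpoint: Tnf is at 0.70, Lta at 0.18 and Ltb at -0.16, and the 5 other genes drawn lie between -0.37 and 0.28.

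Genes next to the cluster gave no call. Of the 6 tested genes in the neighbour list, 1 lay above 0 and 5 below, the median log2 fold change was -0.10 and 0 were called. The named ones were Atp6v1g2 (0.28), a proton pump subunit, Aif1 (-0.37), a marker of macrophages, Ddx39b (-0.10), an RNA helicase of splicing and export, and Lst1 (-0.17), a myeloid transcript. Nfkbil1, the nearest gene beyond Lta, had -0.05 and Prrc2a -0.10.

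Tnfsf14 encodes LIGHT, a T cell costimulator that binds both HVEM and the lymphotoxin beta receptor. It had 25.4, 23.7 and 27.4 CPM in the Ogt-KD libraries, against 18.1, 23.0 and 24.6 CPM in the control libraries. Control replicate 1 was lowest and control replicate 3 lay above Ogt-KD replicate 2, so the groups overlap. Within numbered pairs the log2 difference was 0.49, 0.04 and 0.15. Ogt-KD over control gave a log2 fold change of 0.22, with an SE of 0.14, an interval of -0.12 to 0.56 and an edgeR adjusted p of 0.815, and without control replicate 1 it was 0.10.

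Cd40lg, the ligand through which helper T cells license B cells and dendritic cells, had 63.0, 61.9 and 49.8 CPM in the Ogt-KD libraries, against 62.8, 65.8 and 58.9 CPM in the control libraries. Ogt-KD replicate 3 was the lowest library and the other 5 lay close together. In edgeR the log2 fold change was -0.10 (SE 0.11, interval -0.37 to 0.16, edgeR adjusted p = 0.941), and without Ogt-KD replicate 3 it was -0.003. Its interval was the narrowest of the 9, and runs from 0.774 to 1.12 times the control level.

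Tnfsf8 encodes CD30 ligand, expressed on activated T cells. It had 136.0, 111.9 and 169.5 CPM in the Ogt-KD libraries, against 128.9, 127.0 and 195.7 CPM in the control libraries. Replicate 3 was the highest library of each group, and its gap to the other libraries of the group exceeded the difference between the group means. On the log2 scale the fold change was -0.11 (SE 0.22, interval -0.62 to 0.40, edgeR adjusted p = 0.973). Its sign turned when 1 library was left out, to 0.02 without Ogt-KD replicate 2 and 0.10 without control replicate 3. The macrophage marker sum was likewise highest in both libraries numbered 3, at 3535 CPM in Ogt-KD and 3909 CPM in control, and its part in the Tnfsf8 values was not tested.

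Both death ligands were without a call. Fasl, which kills cells that carry Fas and limits T cell responses, had 5.39, 6.59 and 8.15 CPM in the Ogt-KD libraries, against 7.86, 6.56 and 9.13 CPM in the control libraries. Ogt-KD replicate 1 was lowest and control replicate 3 highest, and the groups overlap. As a log2 fold change this was -0.22 (SE 0.22, interval -0.74 to 0.30, edgeR adjusted p = 0.929), and it ran from -0.39 without Ogt-KD replicate 3 to -0.08 without Ogt-KD replicate 1. With 110 to 204 reads per library it was the least deeply counted member, with an SD from counting error of 0.115 on the log2 scale.

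Tnfsf10 encodes TRAIL, which binds death receptors and decoys. It had 53.30, 82.58 and 49.99 CPM in the Ogt-KD libraries, against 52.0, 64.4 and 44.4 CPM in the control libraries. Replicate 2 was highest in each group, Ogt-KD replicate 2 lay above every control library, and the groups overlap. Within numbered pairs the log2 difference was 0.04, 0.36 and 0.17. In edgeR the log2 fold change was 0.21 (SE 0.22, interval -0.32 to 0.73, edgeR adjusted p = 0.940), and it was -0.06 without Ogt-KD replicate 2. Natural killer cells also make both death ligands. The NK marker list summed to 55.5 to 83.7 CPM in Ogt-KD and 45.1 to 49.3 CPM in control libraries, 5 of its 8 genes passed the filter, and of these 3 lay above 0 and 2 below. The largest part of the sum in every library was Nkg7, which T cells also express, at 62.7, 54.0 and 30.9 CPM in Ogt-KD libraries, against 23.3, 30.3 and 20.8 CPM in control libraries. Klrc1, an inhibitory receptor gene, had a log2 fold change of -0.71. Ncr1, a defining gene of NK cells, stood at 0.160 to 0.456 CPM in Ogt-KD and 0.169 to 0.228 CPM in control libraries. The part of NK cells was not tested.

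Tnfsf11 encodes RANKL, which drives osteoclast formation and dendritic cell survival. It had 24.8, 26.0 and 34.4 CPM in the Ogt-KD libraries, against 25.9, 19.8 and 24.8 CPM in the control libraries. Ogt-KD replicate 3 was the highest library and control replicate 2 the lowest, with the remaining 4 between 24.8 and 26.0 CPM. Ogt-KD over control gave a log2 fold change of 0.27, with an SE of 0.17, an interval of -0.13 to 0.67 and an edgeR adjusted p of 0.803, and without Ogt-KD replicate 3 it was 0.11.

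**Figure D4:**
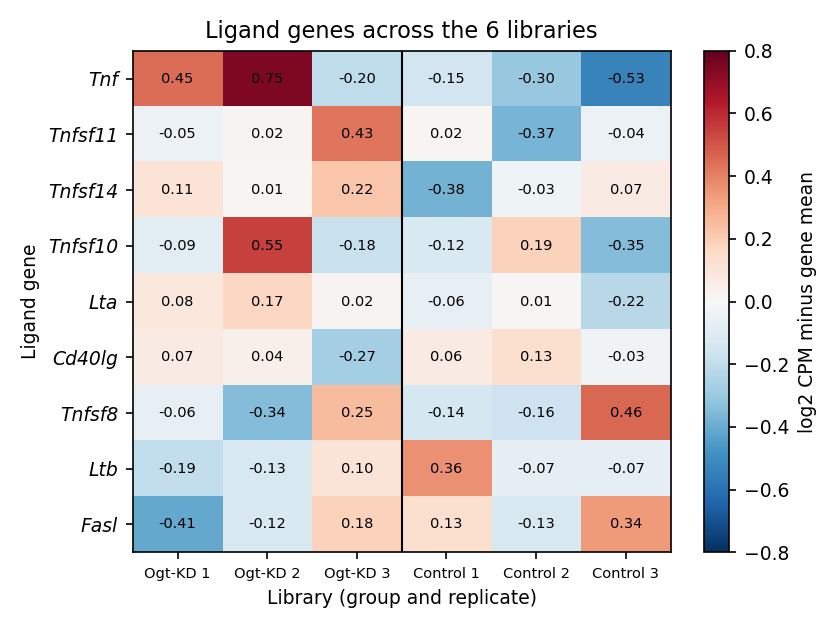
Log2 CPM of each ligand gene minus its mean over the 6 libraries, for Ogt-KD (left 3 columns) and control (right 3 columns), red above and blue below the mean. Tnf runs from 0.75 in Ogt-KD replicate 2 to -0.53 in control replicate 3, while Tnfsf8 and Fasl have their highest library in control replicate 3.

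The 9 genes did not share 1 pattern over the libraries. In Ogt-KD replicate 2, Tnf and Tnfsf10 lay 0.75 and 0.55 above their means on the log2 CPM scale, while Tnfsf8 lay at -0.34. In control replicate 3 the order was turned, with Tnfsf8 at 0.46 and Fasl at 0.34, against Tnf at -0.53 and Tnfsf10 at -0.35. By numbered pair, the log2 difference had mixed signs for Ltb (-0.56, -0.06 and 0.17) and Cd40lg (0.005, -0.09 and -0.24). The same held for Tnfsf8 (0.08, -0.18 and -0.21), Fasl (-0.54, 0.006 and -0.16) and Tnfsf11 (-0.06, 0.39 and 0.47). Likeness to other genes was measured as the root mean square difference of centred log2 CPM over the 6 libraries, among 9257 genes at a mean log2 CPM of at least 3. Nearest to Tnf were Rgs16 (0.0942) and Ncf1 (0.111), where the median gene differed from Tnf by 0.472. For the other members that median ran from 0.1937 for Cd40lg to 0.3275 for Tnfsf10, so distances cannot be compared between members. Nearest to Ltb were Gimap6 (0.0206) and Acot2 (0.0643), and to Lta N4bp2l1 (0.0246) and Hnrnpll (0.0297). Nearest to Cd40lg were Clk2 (0.0136) and Pdcd11 (0.0151), to Tnfsf8 C3 (0.0599) and Nln (0.0790), and to Fasl Asf1a (0.0501) and Hdac2 (0.0576). Nearest to Tnfsf10 were Ccr9 (0.0801) and Plcb3 (0.0864), to Tnfsf11 Hmgb1-ps2 (0.0311) and Dctpp1 (0.0534), and to Tnfsf14 Lrrc8d (0.0482) and Lrmp (0.0636). Each is the smallest of 9257 differences over only 6 libraries, so small values follow from the choice.

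Receptors of these ligands were read beside them, since helper T cells carry several. Of 11 tested receptor genes 6 lay above 0 and 5 below, the median log2 fold change was 0.07, and 0 were called. An unadjusted edgeR p under 0.05 was found for 3, all higher in Ogt-KD, where 5.04% of all tested genes were. Tnfrsf1b, which encodes the TNF receptor that T cells use for costimulation, had 192, 225 and 165 CPM in the Ogt-KD libraries, against 120, 162 and 119 CPM in the control libraries. Its groups did not overlap, its log2 fold change was 0.54 (SE 0.17), and its edgeR adjusted p was 0.560, or 0.0559 with the replicate block. Tnfrsf8, the gene for CD30 and thus the receptor of Tnfsf8, stood at a log2 fold change of 0.81 (SE of 0.29, edgeR adjusted p = 0.605). Tnfrsf23, a TRAIL decoy receptor of the mouse, had 0.57 (SE 0.20, edgeR adjusted p = 0.606), and Tnfrsf1a, the widely expressed death domain receptor for TNF, had -0.21 (SE 0.11, edgeR adjusted p = 0.713). Tnfrsf11b, the soluble decoy of RANKL, had 0 reads in every library.

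The other TNF superfamily ligands were near the floor. Of 9 genes, Cd70 and Eda did not pass the filter, and the 9 together summed to 7.89 to 8.31 CPM in Ogt-KD and 6.26 to 8.42 CPM in control libraries, where the 9 members summed to 970 to 1134 and 1015 to 1242 CPM. Of the 7 tested, 4 lay above 0 and 3 below, the median log2 fold change was 0.14, 0 were called, and none was at an unadjusted p under 0.05. Tnfsf4, the gene for OX40 ligand, had 1.20 (SE 0.52) at a mean of 0.777 CPM in Ogt-KD and 0.348 CPM in control libraries. Tnfsf13b, which encodes the B cell survival factor BAFF, had 0.82 (SE 0.43), Tnfsf15 0.89 (SE 0.66) and Tnfsf18, the gene for GITR ligand, -0.41 (SE 0.36).

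Genes that act after the receptor, on the ligand protein or on its RNA also gave no call. Of 19 adaptors, kinases, caspases and NF-kB subunits, 12 lay above 0 and 7 below, the median log2 fold change was 0.04, and none was at an unadjusted p under 0.05. The 4 with the smallest p were Traf1 (0.41, SE 0.24) and Relb (0.36, SE 0.27), both known NF-kB targets, and Traf5 (-0.14, SE 0.09) and Traf6 (-0.08, SE 0.08). Of 7 genes for shedding and maturation, 5 lay above 0 and 2 below, with a median of 0.01. Among them Furin, a proprotein convertase, had 157, 132 and 113 CPM in the Ogt-KD libraries, against 80.8, 106 and 87.3 CPM in the control libraries (log2 fold change 0.55, SE 0.15, unadjusted p = 0.00834, edgeR adjusted p = 0.532). Rhbdf1 had 0.37, Rhbdf2, which carries the TNF sheddase to the surface, 0.12, and Adam10 -0.09. Adam17, the sheddase itself, had 0.01 (SE 0.11). Of 8 RNA-binding proteins that act on cytokine RNA, 3 lay above 0 and 5 below, with a median of -0.03. These included Zfp36l2 (-0.62, SE 0.36), Rc3h1 (-0.17, SE 0.11), the gene for Roquin, Zc3h12a (0.22, SE 0.20), the gene for the RNase Regnase, and Elavl1 (-0.04, SE 0.08). Zfp36, whose product tristetraprolin destabilises Tnf RNA, had -0.01 (SE 0.21).

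**Figure D5:**
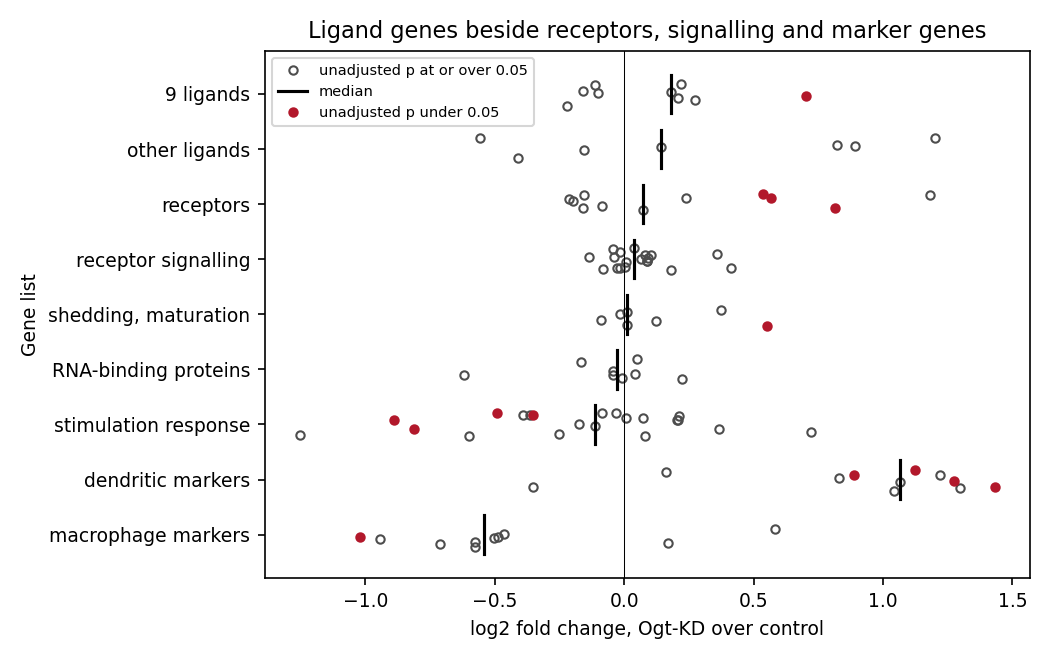
Log2 fold change (Ogt-KD over control) for every tested gene of 9 lists, filled red where the unadjusted edgeR p was under 0.05 and open where it was not, with a line at each list's median. The 9 ligands have a median of 0.18, the stimulation response genes of -0.11 and the dendritic markers of 1.07.

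Stimulation response genes, among which Tnf is often counted, lay on both sides of 0. Of 21 tested genes, 13 lay below 0 against 8 on the upper side, where 51.0% of all tested genes lay below 0. The median log2 fold change was -0.11. An unadjusted edgeR p under 0.05 was found for 4, all of them lower in Ogt-KD, where 2.48% of all tested genes were. With the replicate block 9 were lower and 1 higher at an unadjusted edgeR p under 0.05. Over all tested genes 13.2% were, in either direction. Tnfaip3, which encodes the NF-kB inhibitor A20 and is itself induced by TNF, had 389, 512 and 630.5 CPM in the Ogt-KD libraries, against 717, 1022 and 949 CPM in the control libraries. Its log2 fold change was -0.81 (SE 0.21), with an edgeR adjusted p of 0.526, or 0.0481 with the replicate block, the only call in the lists of receptors, signalling, shedding, RNA-binding, stimulation and neighbouring genes under either fit. Klf6 had -0.49 (SE 0.12), Fos -0.89 (SE 0.31) and Jund -0.35 (SE 0.12), none past the threshold in either fit. Immediate early genes also respond to tissue handling, and the part of handling was not tested. The 3 lists of T cell states were above 0 in full, where 49% of all tested genes lay above 0. Medians were 0.78 for 8 Th1 genes, 0.66 for 8 regulatory T cell genes and 0.81 for 10 cell cycle genes. edgeR called 0 of them without the block. With it 2 Th1 and 3 regulatory T cell genes were called, beside 0.292% of all tested genes. These lists were chosen with earlier results of these data known, so their shared sign is not an independent finding.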

How the data were processed

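RNA from splenic CD4+ T cells was sequenced in 3 Ogt-KD and 3 control libraries. The sample titles do not say how many mice each library holds. The submitters' processing notes name TopHat2 2.0.9, Bowtie2 2.0.6 and mm9. The deposited coordinates of the 9 genes are those of GRCm38. The sources used here do not name the counting tool, its strand setting or the authors' test. The authors' values lie close to those of the DESeq2 Wald test here. For Tnf the log2 fold change was 0.6968 in theirs and 0.69676 in DESeq2, and over all genes 110 and 111 were called. Deposited read counts per gene were tested. The FPKM deposited by the authors is, from the values, the count divided by the deposited gene length and by a constant of each library. The group means of normalised signal that the authors deposited were not used, and the authors' log2 fold change and p-value were only set beside the tests.

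The main test was edgeR 4.0.16 (R 4.3.3, quasi-likelihood, robust, TMM, filterByExpr) on the 6 libraries, with Benjamini-Hochberg adjustment over 16075 genes and a threshold of 0.05. CPM are TMM-scaled counts. DESeq2 1.42.0, limma-voom (limma 3.58.1), other scalings, other filters and left-out libraries were alternatives. The members, lists and alternatives were chosen with earlier results of these data known. Named genes were all members, up to 4 of each pathway list with the smallest p and any past the threshold, and the 2 genes most like each member. Chosen after their values were seen were Nfkbil1, Prrc2a, Adam17, Zfp36, Tnfrsf11b, Cd70, Eda, Zbtb46, Itgax, H2-Eb1, H2-Ab1, Cd74, Sirpa, Clec9a, Nkg7, Klrc1, Ncr1 and Ifng. Of the lists of T cell states, only Ifng is given by name. The labels state no pairing. Deviations of same-numbered libraries correlated at 0.109, 0.347 and 0.523, all over 0.1, so a replicate block was fitted too. Ogt-KD 1 correlated more with control 2 (0.267) than with control 1, so pairs 1 and 2 are not clearly told apart. That pairing was read from the same counts, so its p-values can be too small.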

Additional observations from a re-analysis of the deposited data

How the results depend on the processing

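Of the 14 alternatives, none called any of the 9 ligand genes, and the lowest adjusted p was 0.0966, for Tnf without both libraries numbered 3. Tnf was above 0 in all 14, from 0.48 to 0.92, with an unadjusted p under 0.05 in 9. With the replicate block its log2 fold change was 0.67, and the block called 0 members and 47 of all genes. Lta, Tnfsf11, Tnfsf14, Cd40lg and Fasl also kept their sign in all 14. The sign turned without Ogt-KD replicate 2 for Tnfsf8 (0.0209) and Tnfsf10 (-0.0557), without control replicate 1 for Ltb (0.000578) and without control replicate 3 for Tnfsf8 (0.102). Leaving out 1 library gave log2 fold changes from -0.253 to 0.000578 for Ltb, from -0.281 to 0.102 for Tnfsf8 and from -0.0557 to 0.364 for Tnfsf10. The count over all genes was 1, and 4 without a filter, 111 with DESeq2, 35 without both libraries numbered 3, and 1 to 2 with 1 library left out. The cause of these differences was not tested. The level of Ltb over the next ligand was 9.82 in FPKM and 4.97 in CPM, which takes no account of length. Leaving out 1 library moved it from 9.36 to 10.2, the log2 balance of Lta to Ltb from 0.201 to 0.455 and that of Tnf to Lta from 0.307 to 0.712. DESeq2 size factors or upper-quartile factors moved the median of all genes from -0.00485 to -0.00362 and 0.00442. With 3 libraries a group, intervals of the members span 0.53 to 1.16 log2 units, so small differences were not detectable.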
